A study of Mus musculus with 4 samples.

Results

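The library labelled Prom1+CD49f+CD45+ was compared with the library of the presorted CD45- cells it was sorted from, which are 2 of the 4 libraries of the series. All 20531 genes with 10 or more counts in either library were compared, out of 41128 in the count table. The cells came from livers of C57BL/6 mice with experimental alcoholic hepatitis. These mice took 40% of their calories freely from a diet rich in cholesterol and fat and 60% as an alcohol liquid diet fed into the stomach, with a binge each week. Livers were digested with collagenase, hepatocytes were reduced by slow centrifugation and CD45+ leukocytes by magnetic beads. The resulting presorted CD45- cells were stained for Prom1 and CD49f and sorted into the labelled Prom1+CD49f+CD45+ population and 2 further populations, Prom1+CD49f+CD45- and Prom1-CD49f+CD45-. The diet, the strain, the disease model and the bead step are thus common to all 4 populations, no healthy liver is among them, and each library holds RNA pooled from 2 mice. Below, "labelled library" stands for the library labelled Prom1+CD49f+CD45+, and CPM for counts per 1000000 after TMM scaling (trimmed mean of M values), which sets the libraries on a common scale.

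Prominin 1 (CD133, gene Prom1) is a membrane protein of bile duct epithelium and of progenitor cells, CD49f is integrin alpha 6 (gene Itga6), a laminin receptor of epithelium and endothelium, and CD45 (gene Ptprc) is the tyrosine phosphatase carried by nucleated blood cells. A fraction positive for CD45 in liver would be searched first for Kupffer cells, monocytes, neutrophils and lymphocytes. Liver sinusoidal endothelial cells, which line the hepatic capillaries, take up waste molecules through scavenger receptors such as the stabilins and respond to vascular endothelial growth factor through Kdr and Flt4. As the gates acted on surface protein and the libraries measure polyadenylated RNA, transcript levels check the labels only indirectly.

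The labelled library held 23069940 counts and the presorted library 52293939. At least 10 counts were found for 19280 genes in the labelled library, against 16470 in the presorted library with its greater depth. Each population has 1 library, so there is no replicate spread, no test was possible, and every ratio carries an exact 95% interval for counting error only. Calls of higher or lower need the entire interval to lie beyond 2-fold. A side at 0 counts is set at a floor of 3 counts, which is 0.130 CPM of library total in the labelled library and 0.0574 CPM in the presorted library.

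Against presorted cells, transcripts of Prom1 and Ptprc were not on the side the label names. Prom1 stood at 11.4 CPM in the labelled library, 355 in the Prom1+CD49f+CD45- sort, 31.1 in the Prom1-CD49f+CD45- sort and 67.2 CPM in presorted cells. The labelled library was the lowest of the 4 and 5.87-fold below presorted (95% interval 5.19 to 6.65), with 284 counts against 2983. Ptprc stood at 14.6 CPM in the labelled library, 6.34 in the Prom1+CD49f+CD45- sort, 3.61 in the Prom1-CD49f+CD45- sort and 21.0 CPM in the presorted library. Its ratio to presorted was 0.693 (0.612 to 0.784), so a population gated as CD45+ had less of the CD45 transcript than one depleted of CD45+ cells, by less than the fold used for calls. Against the CD45- sorts, Ptprc was higher in the labelled library. Itga6 was above presorted by a small margin, at 127 CPM in the labelled library, 72.9 and 50.5 in the Prom1+ and Prom1- CD45- libraries and 110 CPM in presorted cells, a ratio of 1.15 (1.10 to 1.20).

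Transcripts of sinusoidal endothelium were abundant in the labelled library. Stab2, a scavenger receptor that clears hyaluronan, stood at 3629 CPM in the labelled library, 17.1 in the Prom1+CD49f+CD45- sort, 358 in the Prom1-CD49f+CD45- sort and 2813 CPM in presorted cells, a ratio of 1.29 (1.28 to 1.30). Kdr, the main receptor for vascular endothelial growth factor, stood at 3178 CPM in the labelled library, 14.6 in the Prom1+CD49f+CD45- sort, 316 in the Prom1-CD49f+CD45- sort and 2231 CPM in presorted cells, a ratio of 1.42 (1.41 to 1.44). Both were highest in the labelled library, next in presorted cells and lowest in the Prom1+CD49f+CD45- population. Selenop, the plasma selenium carrier and the gene with the most counts in the labelled library, stood at 9149 CPM there, 1169 in the Prom1+CD49f+CD45- sort, 3457 in the Prom1-CD49f+CD45- sort and 8428 CPM in presorted cells, a ratio of 1.09 (1.08 to 1.09). Mpo, the myeloperoxidase of neutrophil primary granules, stood at 552 CPM in the labelled library, 7.44 in the Prom1+CD49f+CD45- sort, 48.8 in the Prom1-CD49f+CD45- sort and 981 CPM in presorted cells, 1.78-fold below presorted (1.74 to 1.81). The labelled library was thus second to the presorted library for this leukocyte product and well above both CD45- sorted populations.

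**Figure D1:**
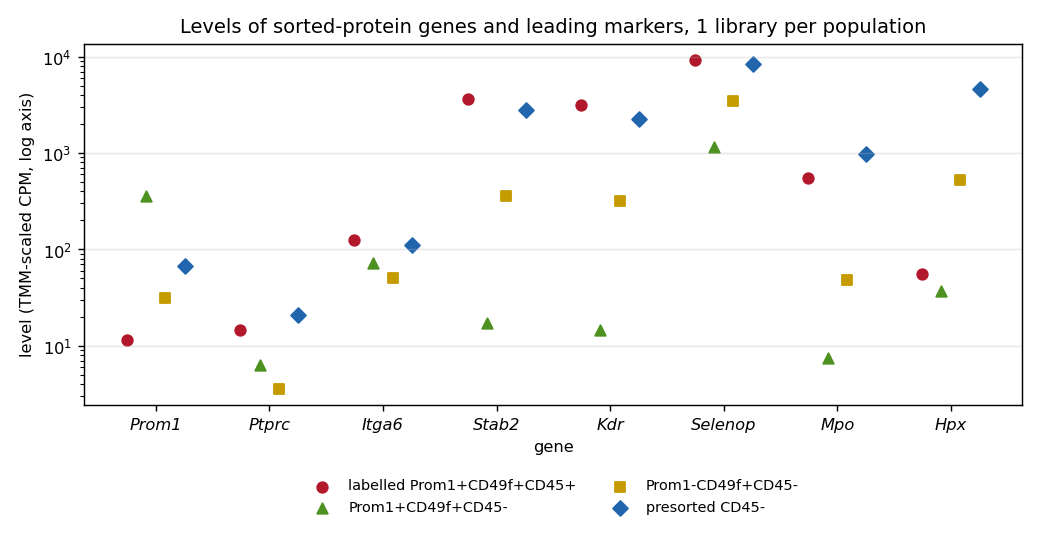
Level of 8 genes in the 4 libraries (TMM-scaled CPM, log axis; 1 point per library, labelled Prom1+CD49f+CD45+ at the left of each gene and presorted CD45- at the right). Prom1 is lowest in the labelled library at 11.4 CPM, Stab2 and Kdr are highest there at 3629 and 3178 CPM, and the hepatocyte gene Hpx stands at 56.2 CPM against 4612 CPM in presorted cells.

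Across all genes, 4876 were called higher in the labelled library (23.7%), 2615 lower (12.7%) and 13040 neither, so 36.5% were called. The median log2 ratio over all genes was 0.06. These 2 sets differed in kind. Of the higher genes, 4373 (89.7%) lay under 1 CPM in presorted cells, 2557 (52.4%) were not protein-coding, and 1737 had 0 presorted counts. The 4373 together held 0.954% of the counts of the labelled library, and all higher genes held 6.08% of them, against 0.743% of presorted counts. The lower genes held 6.21% of labelled counts against 28.9% of presorted counts, and 2480 of the 2615 were protein-coding. Among the 8185 genes at 20 CPM or more in presorted cells, a limit chosen after the values were seen, 87 were called higher (1.06%) and 1279 lower (15.6%), 16.7% in all, with a median log2 ratio of -0.21. Of these expressed genes, 5561 (67.9%) lay within 1.5-fold of the presorted level. For most transcripts at 20 CPM or more in presorted cells the labelled library therefore differed little from the population it was sorted from. Calls within this set were mostly lower. The limit acts on the presorted side alone. Genes low there but abundant in the labelled library cannot enter, while genes lost from the labelled library can. The balance of higher and lower calls in this set thus depends in part on the limit.

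**Figure D2:**
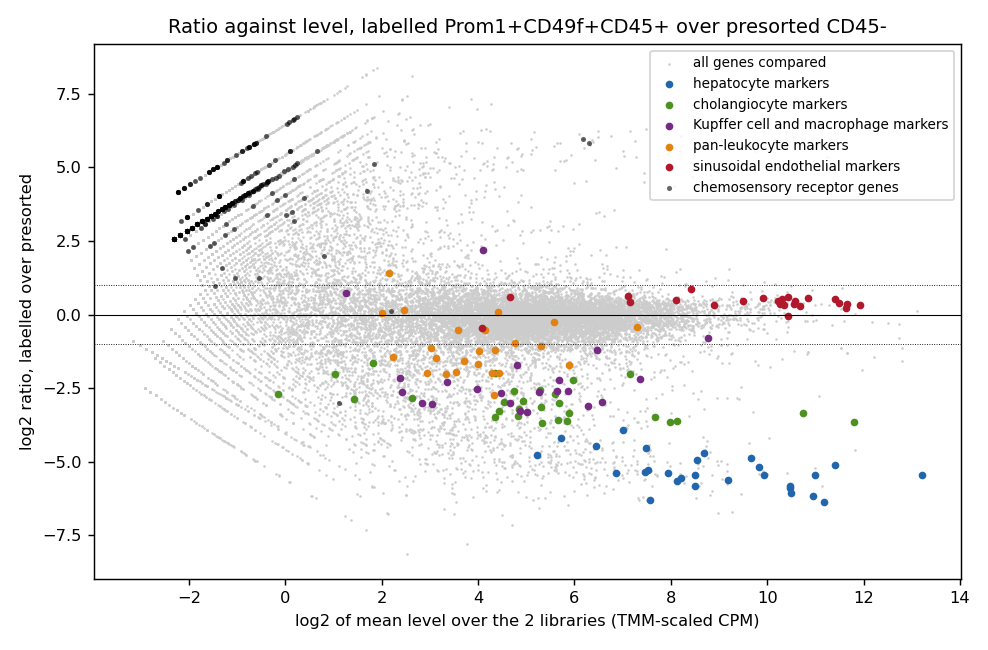
Log2 ratio of the labelled Prom1+CD49f+CD45+ library over the presorted CD45- library against the log2 mean level of the 2 libraries, 1 point per gene (20531 genes; dotted lines at 2-fold; a gene at 0 counts on one side is drawn at its ratio to the floor of 3 counts). Sinusoidal endothelial markers sit at high levels just above 0, hepatocyte and cholangiocyte markers lie below -1.66, and chemosensory receptor genes lie at the upper left, where presorted counts are near 0.

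Which cell types the labelled library holds was read from 18 lists of marker genes. Counts of calls in these and later lists are to be set beside 23.7% higher and 12.7% lower over all genes. At 20 CPM or more in presorted cells these shares were 1.06% and 15.6%. Whole intervals lay above 1 for 9021 of all 20531 genes and below 1 for 7757. At 20 CPM or more in presorted cells the counts were 2232 above and 4794 below, of 8185. Counts of intervals above or below 1 in the lists are to be set beside these. No member of the 24 sinusoidal endothelial markers passed 2-fold in either direction, but 22 had their whole interval above 1 and the list median was 0.43 on the log2 scale, a ratio of 1.35, beside 0.06 over all genes. Their summed level was 37651 CPM in the labelled library, 616 in the Prom1+CD49f+CD45- sort, 10296 in the Prom1-CD49f+CD45- sort and 28844 CPM in presorted cells. The widest upward ratio was that of Maf, a transcription factor of sinusoidal identity, at 443 CPM in the labelled library against 243 CPM in presorted cells, 1.82-fold. Clec4g (a lectin), Bmp2 (the ligand by which these cells direct hepcidin in hepatocytes) and F8 (coagulation factor VIII, made in liver by this cell type) had ratios of 1.32, 1.46 and 1.47. Of the 2 members with intervals below 1, Rspo3, a Wnt enhancer made around the central vein, stood at 14.2 CPM in the labelled library against 19.6 CPM in presorted cells, and Ctsl, the protease cathepsin L, at 1352 against 1411 CPM.

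Genes shared by all endothelium were mostly a little above presorted. None of 28 pan-endothelial markers was called, 27 had intervals above 1, and the median log2 ratio was 0.37. The list summed to 15973 CPM in the labelled library, 366 in the Prom1+CD49f+CD45- sort, 11122 in the Prom1-CD49f+CD45- sort and 11893 CPM in presorted cells. Ptprb, the vascular endothelial phosphatase, had the highest ratio, 1.77 (1.75 to 1.79), at 2479 CPM in the labelled library and 1398 CPM in presorted cells. Pecam1 (CD31) stood at 758 CPM in the labelled library and 551 CPM in presorted cells, a ratio of 1.38. Plvap, which forms the diaphragms of fenestrae and caveolae, was the 1 member below presorted, at 438 CPM in the labelled library against 562 CPM, a ratio of 0.779.

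Markers of large vessels and lymphatics had a negative median. Of 16, none was called higher and 6 were called lower (37.5%, beside 12.7% of all genes), with a median log2 ratio of -0.70. Gja5, the connexin 40 gene of arteries, stood at 1.73 CPM in the labelled library, 0.993 in the Prom1+CD49f+CD45- sort, 213 in the Prom1-CD49f+CD45- sort and 19.8 CPM in presorted cells, 11.4-fold lower than presorted. Mmrn1, a multimerin of lymphatic endothelium and platelets, stood at 1.93 CPM in the labelled library, 1.63 and 139 in the Prom1+ and Prom1- CD45- libraries and 12.2 CPM in presorted cells, 6.32-fold lower than presorted. Both genes peaked in the Prom1-CD49f+CD45- population. Prox1, the lymphatic determinant that hepatocytes and duct cells also express, was 8.05-fold lower than presorted, and Fbln2 (fibulin 2), Reln (reelin) and Ccl21a, a chemokine of lymphatic endothelium with near-identical gene copies, were the other lower members. Gja4 (connexin 37), Efnb2 (ephrin B2) and Ackr1 (the venular chemokine-binding receptor) were uncalled, at ratios of 1.28, 1.14 and 1.02. The 6 lower genes stood between 1.73 and 8.26 CPM in the labelled library.

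Zonal genes gave no call. Sinusoidal cells near the central vein secrete Wnt ligands, while those near the portal tract express Dll4, Efnb2 and Msr1. None of 8 pericentral genes was called and the median log2 ratio was 0.45. Wnt2 stood at 168 CPM in the labelled library against 109 CPM in presorted cells, Kit (the stem cell factor receptor) at 622 against 431, Thbd (thrombomodulin) at 322 against 227, and Wnt9b at 31.9 against 31.4 CPM. None of 8 periportal genes was called either, with a median of 0.12. Adam23 stood at 738 CPM in the labelled library against 480 CPM in presorted cells, Dll4 (a Notch ligand) at 264 against 212, Msr1 (the class A scavenger receptor) at 1108 against 986, and Ntn4 (netrin 4) at 658 against 813 CPM. A difference between the zonal lists was not tested.

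Leukocyte transcripts were low, and most were lower than in presorted cells. Of 24 pan-leukocyte markers, 13 were called lower and 1 higher, with a median log2 ratio of -1.24. Together they reached 396 CPM in the labelled library, 78.9 in the Prom1+CD49f+CD45- sort, 196 in the Prom1-CD49f+CD45- sort and 756 CPM in presorted cells. Itgb2 (CD18, the beta chain of leukocyte integrins) stood at 5.24 CPM in the labelled library, 0.438 in the Prom1+CD49f+CD45- sort, 4.67 in the Prom1-CD49f+CD45- sort and 35.1 CPM in presorted cells, 6.70-fold lower than presorted. Tyrobp, the signalling adaptor DAP12, was 4.01-fold lower and Laptm5, a lysosomal protein of blood cells, 3.30-fold lower. Lcp1 (L-plastin) and Fcer1g (an Fc receptor chain) were uncalled at ratios of 0.749 and 0.843. The 1 higher member was Was, the Wiskott-Aldrich gene, at 6.49 CPM in the labelled library, 4.44 in the Prom1+CD49f+CD45- sort, 0.990 in the Prom1-CD49f+CD45- sort and 2.43 CPM in presorted cells. In pooled RNA, fewer cells of a type cannot be told apart from less RNA per cell.

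Kupffer cell and macrophage markers had the lowest median of the blood cell lists. Of 22 Kupffer cell and macrophage markers, 19 were called lower and 1 higher, with a median log2 ratio of -2.59. Clec4f, a lectin restricted to Kupffer cells, stood at 16 CPM in the labelled library, 1.81 in the Prom1+CD49f+CD45- sort, 11.3 in the Prom1-CD49f+CD45- sort and 139 CPM in presorted cells, 8.69-fold lower than presorted. Adgre1, which encodes F4/80, was 9.79-fold lower, Marco (a scavenger receptor) 10.0-fold lower and Cd5l 7.84-fold lower. The presorted library thus still held these transcripts after the CD45 bead step, at several times the level of the labelled library. Lyz2 (lysozyme 2) was 4.52-fold lower, C1qb (a complement C1q chain) 2.32-fold lower, and Slc40a1, the iron exporter ferroportin, was uncalled at 1.75-fold below presorted. Spic, a factor of iron-recycling macrophages, was the 1 higher member, at 28.1 CPM in the labelled library, 18.6 in the Prom1+CD49f+CD45- sort, 3.04 in the Prom1-CD49f+CD45- sort and 6.15 CPM in presorted cells.

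Neutrophil genes were lower or uncalled, with 1 exception. The list of 17 measured genes had 8 lower and 1 higher, with a median log2 ratio of -1.24. Primary granule genes, made in early bone marrow precursors, were uncalled as a group of 4 picked after the values were seen. Elane (neutrophil elastase) stood at 181 CPM in the labelled library, 2.60 in the Prom1+CD49f+CD45- sort, 22.5 in the Prom1-CD49f+CD45- sort and 318 CPM in presorted cells, 1.76-fold below presorted. Prtn3 (proteinase 3), Mpo and Ctsg (cathepsin G) were 1.81-fold, 1.78-fold and 1.66-fold below, so the ratios of the 4 lay close together. Their summed level was 815 CPM in the labelled library, 11.4 in the Prom1+CD49f+CD45- sort, 82.8 in the Prom1-CD49f+CD45- sort and 1444 CPM in presorted cells. A further 5 genes picked after the values were seen, Ngp (neutrophilic granule protein, 2.66-fold), Ltf, Camp, S100a8 (2.95-fold) and S100a9 (2.86-fold), were called lower. The 5 summed to 112 CPM in the labelled library, 0.934 and 19.9 in the Prom1+ and Prom1- CD45- libraries and 303 CPM in presorted cells. Mmp8, a collagenase of secondary granules, was uncalled at 1.85 CPM in the labelled library against 1.87 CPM in presorted cells, and a difference between granule types was not tested. Cxcr2, the chemokine receptor of mature neutrophils, ran the other way, at 44.3 CPM in the labelled library, 29.3 in the Prom1+CD49f+CD45- sort, 6.29 in the Prom1-CD49f+CD45- sort and 2.21 CPM in presorted cells. The gene models Gm26905 and Zfp488, described below, have the same order of the libraries.

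No other blood lineage was prominent. Of 12 monocyte markers, 2 were lower (Chil3 and F13a1) and 2 higher (Ms4a6c and Clec4e), while Ly6c2, which marks classical monocytes, was uncalled at 28.9 CPM in the labelled library against 58.8 CPM in presorted cells. Of 21 T and NK cell markers, 5 were higher and none lower, and their summed level was 47.6 CPM in the labelled library against 49.0 CPM in presorted cells. Cd8a, the highest ratio among them, rested on 79 counts in the labelled library against 6, which is 3.18 CPM against 0.135 CPM, and Prom1+CD49f+CD45- cells stood at 1.96 CPM. Of 13 B and plasma cell markers, 2 were higher and 3 lower, with Ms4a1 (CD20) at 14.0 CPM in the labelled library, 7.97 in Prom1+CD49f+CD45- and 1.01 CPM in presorted cells, and Ighm (the IgM heavy chain) at 2.74 against 10.5 CPM. Of 11 dendritic cell markers, 4 were higher and 1 lower, led by the chemokine receptor Ccr9 at 5.85 CPM in the labelled library, 3.91 in Prom1+CD49f+CD45- and 0.113 CPM in presorted cells. Apart from Clec4e, the higher members of these 4 lists also stood above presorted in the Prom1+CD49f+CD45- library, as did 4669 of all 4876 higher genes. In the class under 1 CPM in presorted cells 66.2% of genes were called higher. That is the share to set beside the higher members of these 4 lists, other than Ms4a6c and Ms4a1. Was, Spic and Cxcr2, called higher in the lists above, also stood above presorted in the Prom1+CD49f+CD45- library. They lay at 1 to 20 CPM in presorted cells, where 7.24% of genes were called higher. Which cells their counts came from was not tested.

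Among the remaining blood lists, 8 of 13 erythroid markers were lower and 2 higher, with a median log2 ratio of -2.41. Hbb-bt, a beta globin with near-identical copies, stood at 0.403 CPM in the labelled library against 44.9 CPM in presorted cells, 111-fold lower (60.5 to 233), and Slc4a1 (band 3) rested on 1 count against 80. Of 8 mast cell and basophil markers, 3 were lower and 1 higher, with the basophil protease gene Prss34 19.8-fold lower. Of 14 megakaryocyte and platelet markers 1 was lower, and of 16 haematopoietic progenitor markers 1 was lower and none higher. Several progenitor markers are also endothelial genes. Cd34 stood at 363 CPM in the labelled library against 313 CPM in presorted cells, and Ly6a (Sca-1) at 337 against 300 CPM.

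Epithelial transcripts were depleted throughout. All 28 hepatocyte markers were lower, with a median log2 ratio of -5.41 and a range of -6.36 to -3.92, beside 12.7% of all genes. Their summed level was 1283 CPM in the labelled library, 14533 in the Prom1+CD49f+CD45- sort, 10937 in the Prom1-CD49f+CD45- sort and 57893 CPM in presorted cells. Hpx (hemopexin, the plasma haem scavenger) stood at 56.2 CPM in the labelled library, 37.5 in the Prom1+CD49f+CD45- sort, 521 in the Prom1-CD49f+CD45- sort and 4612 CPM in presorted cells, 82.1-fold lower (77.9 to 86.6). Alb (albumin) stood at 153 CPM in the labelled library, 3243 and 1266 in the Prom1+ and Prom1- CD45- libraries and 5271 CPM in presorted cells, 34.4-fold lower (33.3 to 35.6). No hepatocyte marker was at 0 in the labelled library, and Apob, the apolipoprotein of very-low-density lipoprotein, had the smallest fall of the list at 15.2-fold.

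The acute phase genes were among those with the largest falls. Saa1 and Saa2, serum amyloid A genes of nearly identical sequence, were 104-fold and 106-fold lower, at 11.8 and 9.47 CPM in the labelled library against 1226 and 1007 CPM in presorted cells. Saa4 was 88.9-fold lower, Apcs (serum amyloid P) 78.5-fold and Orm1 (orosomucoid) 70.5-fold. Further genes of the 15 lower genes chosen by interval were Igfbp2 (143-fold), Hsd17b6 (95-fold), Apoa5 (79.4-fold), the urea cycle enzyme gene Cps1 (79.3-fold), Serpina1e (75.6-fold), the fibrinogen genes Fgb (71.9-fold) and Fgg (66.8-fold), and Kng1 (kininogen, 68.7-fold). Mup16, of the major urinary protein family with many near-identical copies, had 0 counts in the labelled library against 1207, at least 225-fold lower. All 15 are secreted products or enzymes of hepatocytes.

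The 28 cholangiocyte markers, of which Prom1 is 1, were all lower as well, with a median log2 ratio of -3.08 and a range of -3.68 to -1.66. The list summed to 1153 CPM in the labelled library, 64640 in the Prom1+CD49f+CD45- sort, 24067 in the Prom1-CD49f+CD45- sort and 12504 CPM in presorted cells. Clu (clusterin) stood at 525 CPM in the labelled library, 29924 in the Prom1+CD49f+CD45- sort, 11351 in the Prom1-CD49f+CD45- sort and 6636 CPM in presorted cells, 12.6-fold lower. Epcam, the epithelial adhesion molecule, stood at 10.4 CPM in the labelled library, 671 in the Prom1+CD49f+CD45- sort, 274 in the Prom1-CD49f+CD45- sort and 107 CPM in presorted cells, 10.3-fold lower. Both ran in the order Prom1+CD49f+CD45-, Prom1-CD49f+CD45-, presorted, labelled. Spp1 (osteopontin), Krt8 and Krt18 (simple epithelial keratins), and Krt19 (a duct keratin) were 10.0-fold, 12.4-fold, 12.3-fold and 12.9-fold lower. Sox9, the duct transcription factor, stood at 11.4 CPM in the labelled library against 91.6 CPM in presorted cells. Prom1, at 5.87-fold, fell less than the others named, and Cftr, the chloride channel, least of the list at 3.15-fold.

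Mesenchymal genes followed. Of 22 stellate cell and fibroblast markers 19 were lower, with a median log2 ratio of -2.49, and of 14 mesothelial and portal fibroblast markers 12 were lower, with a median of -4.10. Col1a1 and Col3a1 (fibrillar collagens) were 33.8-fold and 27.7-fold lower and Dcn (decorin) 12.6-fold, whereas Lrat, which esterifies retinol in stellate cells, was 2.59-fold lower and Ecm1 2.57-fold. Msln (mesothelin) stood at 1.05 CPM in the labelled library, 1.55 in the Prom1+CD49f+CD45- sort, 115 in the Prom1-CD49f+CD45- sort and 33.8 CPM in presorted cells. Hgf, the hepatocyte growth factor that stellate and sinusoidal cells both make, was uncalled at 228 CPM in the labelled library against 185 CPM in presorted cells. Of the 18 lists, only the sinusoidal, pan-endothelial and haematopoietic progenitor lists had both a positive median and over 1000 summed CPM in the labelled library, and the progenitor genes Kit, Cd34 and Ly6a are also expressed by endothelium.

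**Figure D3:**
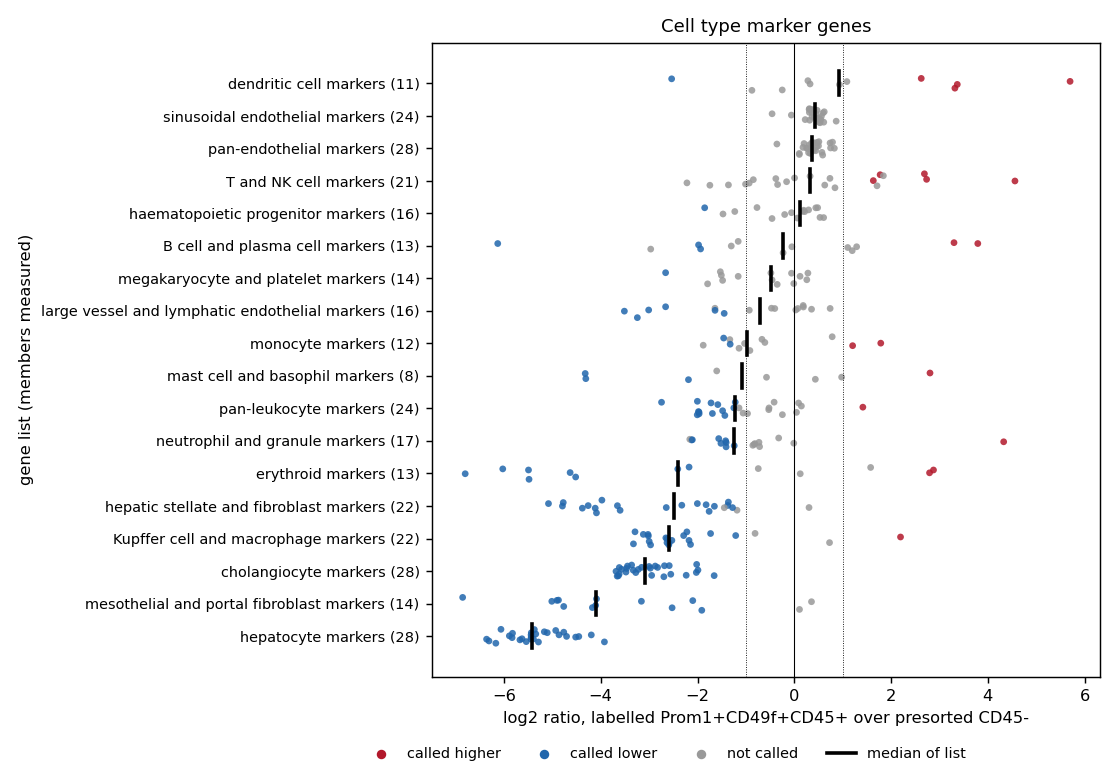
Log2 ratio of the labelled Prom1+CD49f+CD45+ library over the presorted CD45- library for each measured member of 18 cell type lists (1 point per gene; black bar, list median; dotted lines at 2-fold; lists ordered by median). Sinusoidal and pan-endothelial markers cluster just above 0 with medians of 0.43 and 0.37, while all 28 hepatocyte and all 28 cholangiocyte markers lie to the left, with medians of -5.41 and -3.08.

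Endothelial signalling genes were examined by role. Among the VEGF, angiopoietin and apelin genes, 1 of 18 was higher and 2 lower (11.1%), near the 12.7% of all genes called lower. The receptors Kdr, Flt4, Tek and Nrp1 had ratios of 1.42, 1.24, 1.29 and 1.39. The ligand Vegfa, made by epithelium and other cells, was lower, at 21.2 CPM in the labelled library, 272 and 35.7 in the Prom1+ and Prom1- CD45- libraries and 52.1 CPM in presorted cells. Angpt1, the Tek ligand, was the other lower gene, and Sema3a, at 3.10 against 0.676 CPM, the higher one. Of 19 scavenger and endocytic receptors 3 were lower, among them Lrp1 (20.6-fold lower) and Marco, both also made outside endothelium. Cubn was the 1 higher, at 2.34 against 0.158 CPM, while Mrc1 (the mannose receptor) and Cd36 (a fatty acid translocase) had ratios of 1.39 and 1.25.

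In the BMP, TGF-beta and ID list, 1 of 24 genes was higher and 6 lower (25%, beside 12.7% of all genes). Bmpr2, the type II BMP receptor, was the higher gene, at 254 CPM in the labelled library, 58.2 in the Prom1+CD49f+CD45- sort, 149 in the Prom1-CD49f+CD45- sort and 111 CPM in presorted cells, a ratio of 2.30 (2.21 to 2.38). Bmp2 was uncalled at 2198 CPM in the labelled library against 1504 CPM in presorted cells, and Bmp6, the other sinusoidal ligand of the hepcidin axis, stood at 113 against 114 CPM. Hamp, the hepcidin gene of hepatocytes, was 63.8-fold lower, and Gdf2 (BMP9), Bmp4, Bmpr1a, Inhba and Id2 were the remaining lower genes. Of 17 Notch pathway genes 1 was lower, Heyl, at 0.685 against 3.33 CPM, and Notch1 was uncalled with a ratio of 1.67. Of 17 coagulation genes none was higher and 5 were lower, including the hepatocyte-made F5 (24.2-fold) and Plat (tissue plasminogen activator, 2.97-fold). Tfpi (tissue factor pathway inhibitor) had a ratio of 1.47.

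Of 24 endothelial transcription factors, 1 was higher, none lower and 21 had intervals above 1, with a median log2 ratio of 0.43. Klf4, which responds to shear stress and is also an early response gene, was the higher one, at 55.9 CPM in the labelled library, 10.8 in the Prom1+CD49f+CD45- sort, 173 in the Prom1-CD49f+CD45- sort and 17 CPM in presorted cells, a ratio of 3.30 (3.01 to 3.61). Meis2, Maf and Erg had ratios of 1.84, 1.82 and 1.68, Ets1 of 1.36, and Gata4, which sets sinusoidal identity, of 1.25, at 527 CPM in the labelled library against 423 CPM in presorted cells. Foxc1 was the 1 member with its interval below 1.

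Of 25 early response genes, 6 were called higher and none lower, against 23.7% of all genes called higher. That share depends on level in presorted cells. It was 1.06% at 20 CPM or more, where Fos, Egr1, Atf3 and Ier3 lay, and 7.24% at 1 to 20 CPM, where Fosb and Klf4 lay. The median log2 ratio of 0.70 was the highest of the 19 programme lists. Fos stood at 883 CPM in the labelled library, 2055 in the Prom1+CD49f+CD45- sort, 1509 in the Prom1-CD49f+CD45- sort and 304 CPM in presorted cells, a ratio of 2.90 (2.84 to 2.96). Fosb stood at 47.8 CPM in the labelled library, 275 in the Prom1+CD49f+CD45- sort, 91.6 in the Prom1-CD49f+CD45- sort and 5.16 CPM in presorted cells, a ratio of 9.27 (8.04 to 10.7). Presorted cells were the lowest of the 4 for both genes, and all 3 sorted populations lay above them. Egr1, Atf3, Ier3 and Klf4 were also called, at ratios of 2.37, 2.26, 2.19 and 3.30, whereas Jun, Dusp1 and Socs3 stood at 1.71, 1.96 and 2.01 without passing the rule, and Ccn1 and Egr2 had ratios below 1. The presorted cells did not go through the sorter, and the part of that step in these values was not tested.

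Inflammatory and interferon genes were mixed. Cxcl10, an interferon-induced chemokine, stood at 161 CPM in the labelled library, 5.43 in the Prom1+CD49f+CD45- sort, 91.0 in the Prom1-CD49f+CD45- sort and 39.4 CPM in presorted cells, a ratio of 4.08 (3.86 to 4.32). Sele (E-selectin) was the other higher gene among 20 adhesion and homing genes, at 14.9 against 5.31 CPM, and 3 of these were lower, namely Cx3cl1, Cxcl12 and Cd44. Vcam1 was uncalled at 275 against 281 CPM. None of 24 interferon response genes was called, with a median log2 ratio of 0.24. Of 12 class II antigen presentation genes 8 were lower, led by Cd74, the invariant chain, at 43.4 CPM in the labelled library, 805 in the Prom1+CD49f+CD45- sort, 542 in the Prom1-CD49f+CD45- sort and 315 CPM in presorted cells.

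Several metabolic lists had more lower members than the 12.7% of all genes, or the 15.6% of genes at 20 CPM or more in presorted cells. Of 22 cholesterol and fatty acid synthesis genes 12 were lower and none higher, with a median log2 ratio of -1.37. Scd1, the stearoyl-CoA desaturase of hepatocytes, stood at 19.9 CPM in the labelled library against 742 CPM in presorted cells, 37.4-fold lower, while Scd2 was uncalled at 100.1 against 134 CPM. Of 22 selenoprotein genes 10 were lower, with Gpx1 and Gpx4 (glutathione peroxidases) at 5.47-fold and 3.06-fold lower, although Selenop was uncalled. Of 18 glycolysis and hypoxia genes 8 were lower, including Gapdh at 2.55-fold, and of 18 unfolded protein response genes 4 were lower, nearer to the share of all genes, with Hspa5 (the chaperone BiP) uncalled at 1.79-fold below presorted. Proliferation genes gave 1 call of 30, Tyms (thymidylate synthase), higher at 76.8 against 27.9 CPM. The list median was -0.51 on the log2 scale, beside -0.21 for genes at 20 CPM or more in presorted cells. Intervals lay below 1 for 19 of 30, a share close to the 4794 of 8185 among genes at that level. Mki67 had a log2 ratio of 0.05. Hepatocyte and cholangiocyte markers fell in the same comparison, and their part in these lists was not tested.

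Integrins and matrix genes completed the set. Of 18 integrins and partners 1 was higher, Itga4, at 20.1 against 8.35 CPM, and 4 were lower, Itgb5, Itga3, Itgb8 and Itgb4. The lower share was 22.2%, beside 12.7% of all genes. Itgb4 is the chain that pairs with CD49f in epithelium, and it stood at 3.91 CPM in the labelled library, 65.3 in the Prom1+CD49f+CD45- sort, 15.1 in the Prom1-CD49f+CD45- sort and 12.6 CPM in presorted cells. Itgb1, the other partner of CD49f, was uncalled at 933 CPM in the labelled library against 875 CPM in presorted cells. Of 22 matrix and basement membrane genes 2 were higher (9.09%) and 5 lower (22.7%). Hspg2 (perlecan, of basement membranes) stood at 96.1 CPM in the labelled library against 23.8 CPM in presorted cells, a ratio of 4.04, and Adamts1, a secreted protease, at 582 against 266 CPM. Fn1 (fibronectin), Lamb1 (laminin beta 1) and Eln (elastin) were among the lower ones, at 17.9-fold, 14.0-fold and 116-fold, the last on 1 count against 207. Igfbp7, Sparc and Col4a1, abundant in sinusoidal endothelium, had ratios of 1.20, 1.07 and 1.12.

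**Figure D4:**
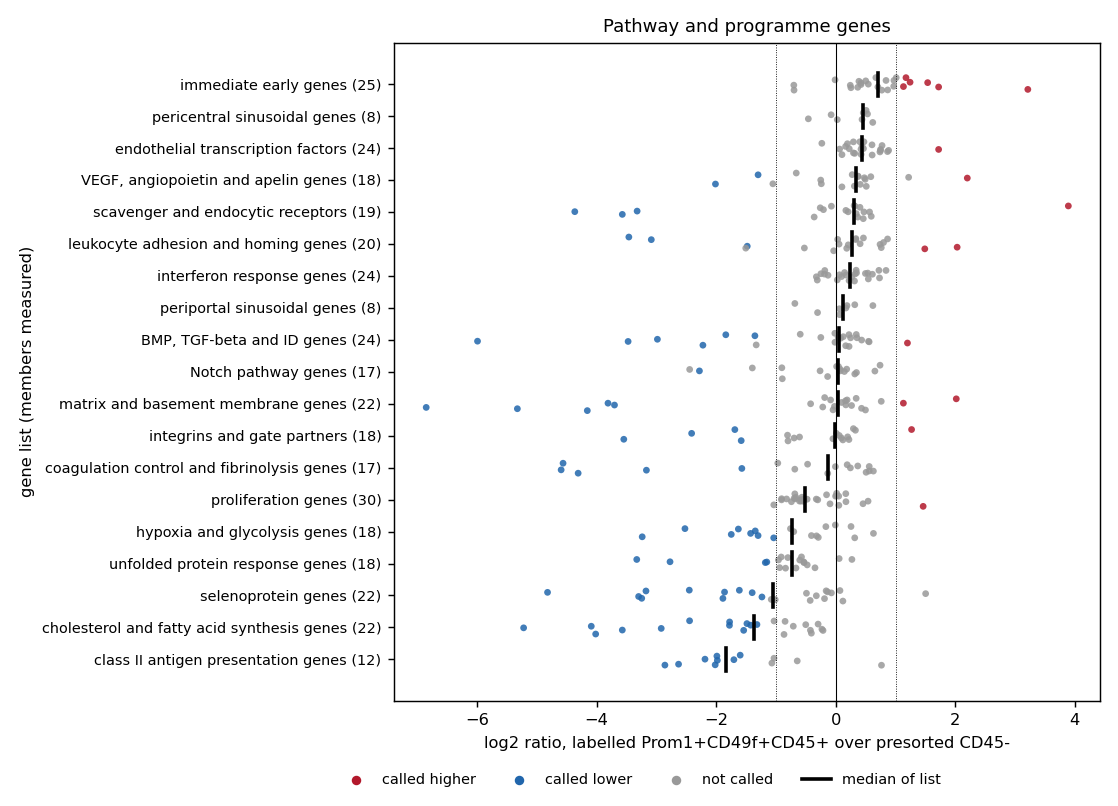
Log2 ratio of the labelled Prom1+CD49f+CD45+ library over the presorted CD45- library for each measured member of 19 pathway and programme lists (1 point per gene; black bar, list median; dotted lines at 2-fold; lists ordered by median). Early response genes have the highest median, 0.70, and class II antigen presentation genes the lowest, -1.84, with 8 of 12 lower.

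Of 8185 genes at 20 CPM or more in presorted cells, 87 were called higher, and those below were picked after their values were seen. No list covered them, so they stand as single genes. Fgd4 stood at 874 CPM in the labelled library, 704 in the Prom1+CD49f+CD45- sort, 249 in the Prom1-CD49f+CD45- sort and 37.2 CPM in presorted cells. Its ratio was 23.5. Hexdc, Dtnb, Hivep2 and Ago3 had ratios of 4.61, 4.03, 3.55 and 3.47. In the Prom1+CD49f+CD45- sort Hexdc and Dtnb stood at 94.0 and 130 CPM, also above presorted. Nfkbiz, an inducible NF-kappaB regulator, stood at 193 CPM in the labelled library, 571 in the Prom1+CD49f+CD45- sort, 131 in the Prom1-CD49f+CD45- sort and 39.5 CPM in presorted cells, a ratio of 4.89. Ppp1r15a (GADD34), Gadd45g, Plk2 and Sgk1 had ratios of 2.74, 2.89, 2.16 and 2.03. Ccnl1, Ccnl2, Clk1, Srsf5 and Hnrnph1 had ratios of 2.86, 2.40, 2.31, 2.10 and 2.34. Macf1 (a cytoskeletal cross-linker) stood at 436 against 148 CPM, Herc1 at 128 against 53.2 CPM and Birc6 at 82.3 against 37.4 CPM. Some of the genes were low in Prom1+CD49f+CD45- cells, such as Cyyr1, at 182 CPM in the labelled library, 3.36 in the Prom1+CD49f+CD45- sort, 139 in the Prom1-CD49f+CD45- sort and 75.6 CPM in presorted cells, and Apold1 (an endothelial early gene) at 86.1, 1.31, 81.9 and 36.1 CPM in the same order.

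The ratio moved with transcript length. Over 12630 protein-coding genes with 100 or more counts, Spearman's rho of the log2 ratio with exon length was 0.34, a description across genes, and the median log2 ratio was -0.66 in the eighth of genes with the shortest exons and 0.19 in the eighth with the longest. With GC content rho was -0.22, with medians of 0.03 in the eighth lowest in GC and -0.39 in the highest. Transcripts from mitochondrial DNA and ribosomal protein genes, both short, were on the low side. All 13 mitochondrially encoded protein genes were lower, with a median log2 ratio of -1.35, and mt-Co1 (cytochrome oxidase subunit 1) stood at 4470 CPM in the labelled library against 9810 CPM in presorted cells. All 80 ribosomal protein genes measured had intervals below 1 with a median of -0.30. That median was above the -0.66 of the eighth with the shortest exons. It was near the -0.21 of genes at 20 CPM or more in presorted cells. Of the 80, 1 was called lower (1.25%), beside 15.6% of genes at 20 CPM or more. The series title names Quant-seq, a method that counts transcript ends, whereas the protocol describes a stranded kit on fragmented RNA, and the length trend reads differently under each. The part of length in any single ratio was not tested, and ratios with the length trend removed are given among the alternatives.

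Upward calls were frequent among genes with no known expression in liver. Chemosensory receptor genes (odorant, vomeronasal, trace amine and taste receptors, expressed in sensory epithelia) are a measure of counts without a plausible source in liver cells. Of 1398 such genes, 981 (70.2%) had a count in the labelled library, 988 (70.7%) in the Prom1+CD49f+CD45- sort, 391 (28.0%) in the Prom1-CD49f+CD45- sort and 185 (13.2%) in presorted cells, although the presorted library was the deepest. Percentile 95 of their level was 1.13 CPM in the labelled library, 0.847 in the Prom1+CD49f+CD45- sort, 0.353 in the Prom1-CD49f+CD45- sort and 0.0450 CPM in presorted cells. Of the 297 that could be compared, 285 were called higher, with a median log2 ratio of 3.50, genes at 0 presorted counts entering at their ratio to the floor of 3 counts.

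Upward calls were also frequent in other gene classes of low expression, at differing shares. Of 909 lincRNA genes 652 were higher, of 1498 pseudogenes 999, of 784 antisense genes 399, of 112 microRNA genes 93 and of 319 chromosome Y genes 305, with median log2 ratios of 3.16, 2.96, 2.16, 3.73 and 3.65. Of 16366 protein-coding genes 2319 were higher and 2480 lower, with a median of -0.09. A level near 1 CPM in the labelled library is therefore within the range of receptor genes not expected in liver. Of the higher lymphocyte and dendritic cell markers, Cd8a, Ccr9 and Ms4a1 stood above that percentile at 3.18, 5.85 and 14.0 CPM, while Eomes and Cr2 lay below it at 0.726 and 0.887 CPM.

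**Figure D5:**
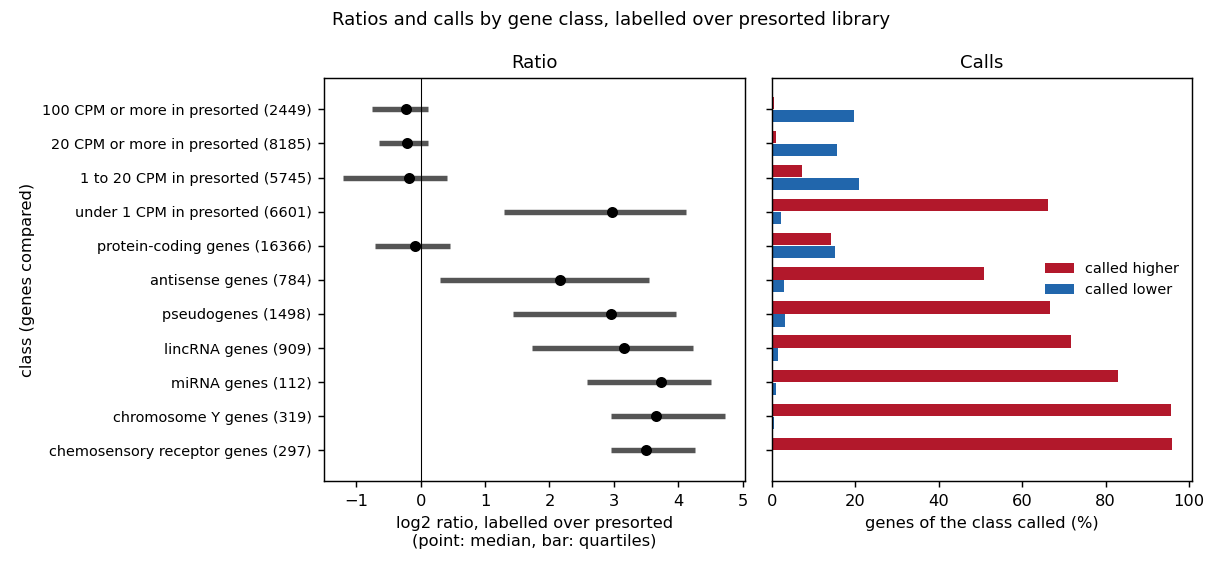
Left, median (point) and quartiles (bar) of the log2 ratio of the labelled Prom1+CD49f+CD45+ library over the presorted CD45- library by gene class; right, percent of genes in each class called higher or lower. Genes at 20 CPM or more in presorted cells have a median of -0.21 and few upward calls, whereas classes of little expression in liver have medians above 2 and upward calls for 50.9% to 96.0% of genes.

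Some of these models reached high levels. Gm26905, a lincRNA model on chromosome 8, was among the 10 genes with the most counts in the labelled library, at 4731 CPM there, 3596 in the Prom1+CD49f+CD45- sort, 2217 in the Prom1-CD49f+CD45- sort and 117 CPM in presorted cells, a ratio of 40.5 (39.4 to 41.6). Zfp488, a zinc finger gene on chromosome 14, stood at 583 CPM in the labelled library, 384 in the Prom1+CD49f+CD45- sort, 63.1 in the Prom1-CD49f+CD45- sort and 8.74 CPM in presorted cells, a ratio of 66.7 (60.3 to 74.0). Both ran in the order labelled, Prom1+CD49f+CD45-, Prom1-CD49f+CD45-, presorted. Of the 15 higher genes chosen by interval, the others were Zfp987, Mrgprc2-ps, Ap1s3, Zbed4-ps1, Nyap2, Smok2b, Ces5a, Opcml, Crb1-ps, Pld5, Abca12, Dpp10, Mcmdc2 and Ces2b. In all of them but Ces5a the level in the Prom1+CD49f+CD45- library was second to that in the labelled library. Nyap2, Zbed4-ps1 and Zfp987 had 0 presorted counts and were at least 62.7-fold, 62.7-fold and 77.6-fold higher.

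Sequences shared by these gene models are shown because unrelated genes moved together. The 59 genes called higher with 1000 or more counts in the labelled library and a ratio over 16, limits set after the values were seen, were searched for runs of 30 bases that recur among their GENCODE vM21 transcripts on either strand. The most frequent run was taken, then the most frequent among the genes without it, and once more. Each is printed 5′ to 3′ in lower case, and none has a marked base.
stretch 1: aaaaacgtgaaaaatgagaaatgcacactg
stretch 2: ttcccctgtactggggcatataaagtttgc
stretch 3: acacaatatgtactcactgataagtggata
Stretch 1 reads as printed in Gm26870 (chr9:3000282-3038313, minus strand, mm10) and stretch 2 in Gm26905 (chr8:58171435-58298866, plus strand). Stretch 3 reads as printed in Gm17131 (chr5:127878531-127882376).

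Stretch 2 was in 9 of the 59 genes, including Gm26905, Zfp488, Dpp10, Kcnq1ot1 (the antisense RNA of the Kcnq1 locus) and Grk1 (rhodopsin kinase). Of all 62 compared genes that hold it, 36 were higher and 1 was lower, with a median log2 ratio of 1.55. Stretch 3 was in 8 of the 59, including Zfp488 again, Hsd3b2 (a steroid dehydrogenase), the odorant receptor gene Olfr613 and the vomeronasal receptor gene Vmn1r58, and 10 of 14 compared genes with it were higher. Olfr613 stood at 156 CPM in the labelled library, 103 in the Prom1+CD49f+CD45- sort, 25.1 in the Prom1-CD49f+CD45- sort and 2.72 CPM in presorted cells, and Vmn1r58 at 143, 105, 20.4 and 2.32 CPM in the same order. These receptor genes thus followed the order seen for Gm26905 and Zfp488.

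Stretch 1 went with another order. It was in 9 of the 59 genes, among them Gm26870, Gm10800 and Gm10717, and all 13 compared genes that hold it were higher, with a median log2 ratio of 5.92. Gm10800 stood at 2644 CPM in the labelled library, 4627 in the Prom1+CD49f+CD45- sort, 14145 in the Prom1-CD49f+CD45- sort and 36.4 CPM in presorted cells, a ratio to presorted of 72.7. Gm26870 stood at 2910 CPM in the labelled library, 4977 and 14888 in the Prom1+ and Prom1- CD45- libraries and 44.5 CPM in presorted cells. Both were highest in Prom1-CD49f+CD45- cells and lowest in presorted cells. With any of the 3 stretches, 57 of 84 compared genes were higher (67.9%), against 4665 of 20189 without (23.1%). Under 5 CPM in presorted cells the counts were 37 of 39 with and 4489 of 8726 (51.4%) without. Chemosensory receptor genes without any of the stretches were higher in 272 of 284 cases. The genes were picked by their ratios, so these shares are descriptions, and reads shared between copies cannot be assigned to one gene.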

How the data were processed

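Per the labels' protocols, polyadenylated RNA was selected and sequenced with a stranded kit, with amplification cycles set by RNA input. The series title names Quant-seq instead, and which applies to these libraries was not settled. The authors deposited estimated counts per gene, of which 51.9% were whole numbers in the labelled library and 58.0% in the presorted library, and normalized values that are CPM with 1 added, as read from the deposited values. Per the submitters' processing notes the tools were TopHat2 and Partek 3 and the build mm10. How strand was treated in counting is not stated, so antisense and overlapping genes are uncertain. The column named only CD45 was taken as presorted CD45- cells. Of 41128 identifiers, 40254 had a symbol in GENCODE vM21.

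Estimated counts were rounded and divided by TMM-scaled sizes from edgeR 4.0.16 (R 4.3.3) over the 4 libraries. Ratios carry exact conditional binomial (Clopper-Pearson) 95% intervals, from scipy 1.17.1, for counting error only, and amplified reads are not independent molecules. The members, the 37 gene lists and the alternatives were chosen with earlier results of these data known, and 54 genes are on more than 1 list. Named genes were the gated genes and given markers, the 15 higher and 15 lower genes farthest from 1 with 100 or more counts, the 10 genes with the most counts, and up to 4 leading members of each list with exceptions; further list members are named after their values were seen. The calculation of the calls was checked on simulated counts that held counting error alone, the error the intervals assume. Spread between animals or preparations and amplification noise were not simulated. DESeq2 1.42.0 size factors served as an alternative, and 30-base stretches that also occur in transcripts of chromosome 18 were left out.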

Additional observations from a re-analysis of the deposited data

Results flagged for a closer look

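Signal outside the compared values was looked at in 3 places. Identifiers without a match in the annotation held 0.365% of the counts of the labelled library, against 0.144% of presorted counts. Chemosensory receptor genes with a count made up 70.7% of such genes in the Prom1+CD49f+CD45- library and 28.0% in the Prom1-CD49f+CD45- library, neither of which enters the comparison, against 13.2% in presorted cells.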

How the results depend on the processing

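No paired analysis was possible because each population has 1 library. Leaving out a replicate was not possible for the same reason. No call among the 264 named genes turned its direction under the 13 alternatives, of which 3 were chosen after seeing the data: genes at 20 CPM or more in presorted cells, scaling on those genes, and protein-coding genes alone. Alternatives that change only the filter or the rule for calls keep each ratio, so no call could turn under them. The count of higher genes was 4876, and moved to 3000 with the authors' normalized values, 1622 with 50 or more counts, 2503 above the chemosensory percentile, 87 at 20 CPM or more in presorted cells, 2319 among protein-coding genes and 9021 with intervals that exclude 1. The count of lower genes was 2615, and moved to 1394 beyond 4-fold, 1279 at 20 CPM or more and 7757 with intervals that exclude 1. Calls were higher in 65.1% of cases, against 39.8%, 48.9%, 48.3% and 6.37% with 50 or more counts, above the chemosensory percentile, among protein-coding genes and at 20 CPM or more, and 53.8% with intervals that exclude 1. Library totals raised the median log2 ratio of all genes by 0.34 and gave 5513 higher and 2073 lower genes. Scaling on expressed genes raised it by 0.21. Sinusoidal endothelial markers called higher, 0 of 24, became 1 with library totals, 1 with scaling on expressed genes, 3 with the authors' values, and 22 with 2 lower where intervals need only exclude 1. Pan-leukocyte markers called lower, 13 of 24, became 8 with library totals, 1 beyond 4-fold, 7 at 20 CPM or more and 20 with intervals that exclude 1, and the 1 higher became 0 with DESeq2 size factors, beyond 4-fold and at 20 CPM or more. All 28 hepatocyte markers stayed lower under each of the 13. Removal of the length trend ended 33 calls among 264 named genes and added 5. Fewer genes or stricter rules bring fewer calls by construction; for other shifts the cause was not tested. Depth limits genes of few counts, where a ratio rests on the floor of 3.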
